A study of Mus musculus with 4 samples.

Results

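The histone genes of mouse cumulus cells (CCs), the somatic companions of the antral oocyte, were followed on 4 Illumina BeadChips, and they were taken as the probes whose symbol began with Hist1h to Hist4h or was H1f0, H1fx, a member of the H2af series, H3f3a or H3f3b. The rule found 70 of the 25697 probes, of which 60 belonged to 55 replication-linked genes (the Hist1h to Hist4h clusters) and 10 belonged to 8 variant genes, so that 63 genes were described, each by its brightest probe. Signals are given in the arbitrary, linear units of the scanner before any normalization. Above the background limit, which was the 95th percentile of the signals of 1371 chemosensory receptor probes of an array (116.0 to 119.6), lay 49 of the 63 genes on all 4 arrays and 10 on none, and all 10 of the latter were replication-linked.

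A pair of CC types was compared, to ask which transcripts differ with the chromatin of the enclosed oocyte. NSN-CCs had surrounded oocytes without a ring of chromatin around the nucleolus, which are developmentally incompetent, and SN-CCs had surrounded oocytes with that ring, which are competent. Each group held 2 pools of CCs, each pool on its own array, from B6C3F1 females, with no allele or treatment that differed between the groups, 6 weeks old in the sample labels and from a wider age range in the study's methods, all primed with folligon before the complexes were isolated from the ovary. Every pool mixed CCs of many complexes from several experiments, and nothing in the labels or the methods pairs NSN-CC pools with SN-CC pools. The tissue field of the labels reads oocytes, but titles, source names and methods speak of cumulus cells, and 9 of 10 cumulus and granulosa markers and 12 of 14 oocyte markers lay above the limit on all 4 arrays.

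The replication-linked histone genes encode the bulk of the H1, H2A, H2B, H3 and H4 proteins that package newly made DNA, and lie together in clusters. Most of them are transcribed mainly in S phase, and most of their mRNAs end in a stem-loop in place of a poly(A) tail. The variant genes encode histones that are placed into chromatin throughout the cell cycle, at promoters, silent regions or sites of DNA damage. Their mRNAs include polyadenylated forms. Granulosa-lineage cells divide rapidly while the follicle grows. The labelling kit primes cDNA from poly(A) tails, so the arrays read the replication-linked genes through whatever share of their transcripts carried such a tail, and that share was not measured. Many replication-linked members of one class are close in their coding sequence and the probe sequences were not analysed here, so a signal may hold RNA of a close relative.

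No histone gene differed between NSN-CCs and SN-CCs after adjustment over all probes. None of the 70 probes passed (limma with Benjamini-Hochberg adjustment, lowest adjusted p = 0.811), and 0% of the 25697 probes passed. At an unadjusted p under 0.05, 3 of the 63 genes were higher in NSN-CCs (Hist1h4i, Hist1h4h and H2afy) and 1 was lower (Hist1h3g), beside 1.09% of all probes higher and 2.02% lower. On the normalized log2 scale, both NSN-CC arrays lay above both SN-CC arrays for 15 of the 63 genes, 12 replication-linked and 3 variant. They lay below both for 8, 6 replication-linked and 2 variant, beside 16% above and 22.2% below over all probes. In the unnormalized signals the groups overlapped for some of these genes, such as Hist1h1c and H1f0. The median log2 fold change (NSN-CCs minus SN-CCs) was −0.029 over the 55 replication-linked genes, with 24 higher and 31 lower, and 0.50 over the 8 variant genes, with 6 higher and 2 lower, while it was −0.033 over all probes. The pools of SN-CCs were the farther apart, with a median SD between pools of 0.23 on the log2 scale for the replication-linked genes and 0.42 for the variants, beside 0.097 and 0.082 in NSN-CCs. Over all probes the medians were 0.19 in SN-CCs and 0.081 in NSN-CCs. Over the probes above the limit on all 4 arrays they were 0.37 and 0.072.

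**Figure D1:**
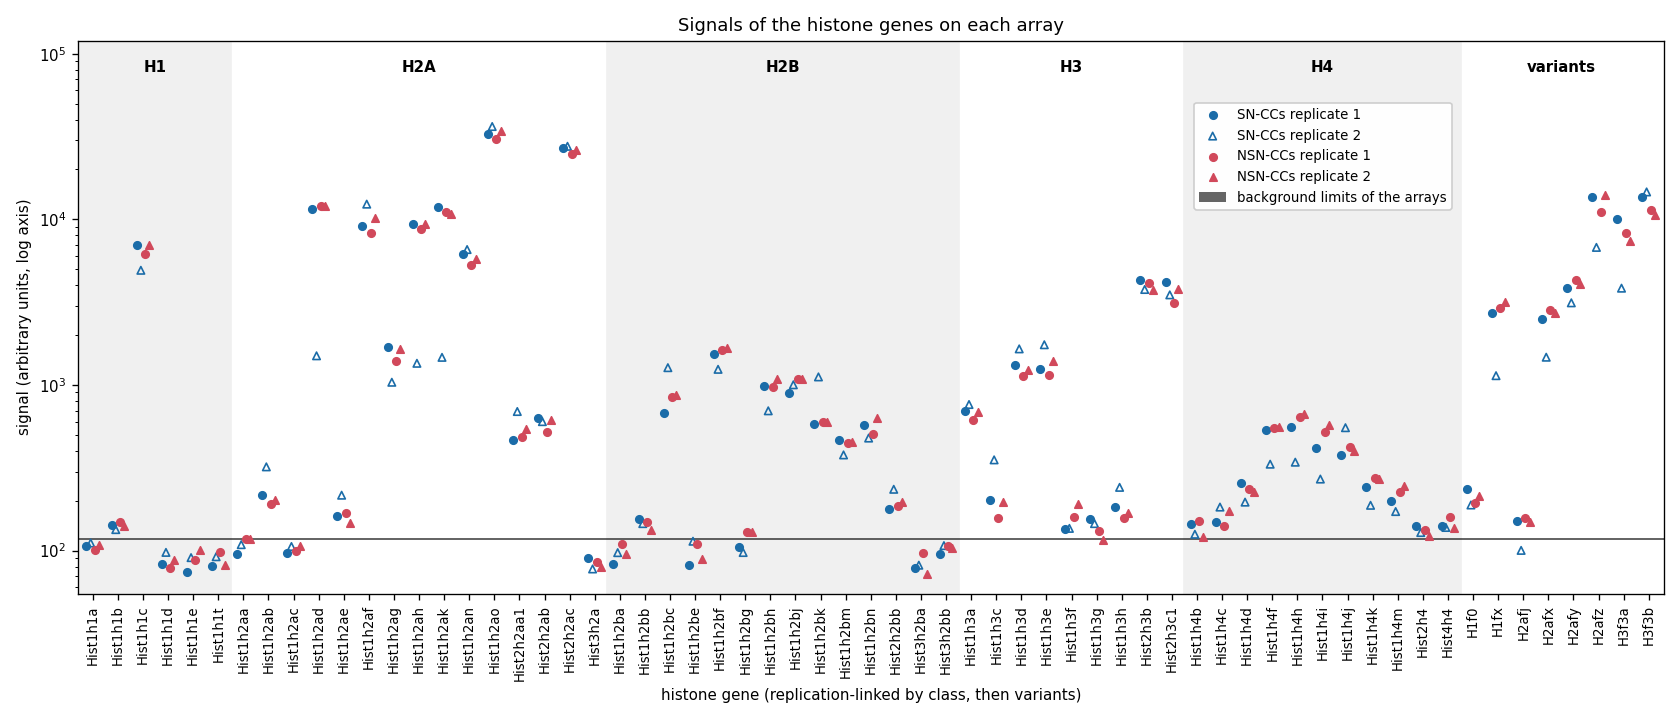
The plot shows the signal of each of the 63 histone genes (brightest probe, arbitrary units, log axis) on the 2 SN-CC arrays and the 2 NSN-CC arrays, with the background limits of the arrays as a dark line. The open triangles of SN-CCs replicate 2 lie far below the other 3 arrays for Hist1h2ad, Hist1h2ah and Hist1h2ak, and below them for H1fx, H2afz and H3f3a.

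One array, that of SN-CCs replicate 2, was unlike the rest. On the normalized log2 scale it gave the highest or the lowest of the 4 values for 78.2% of the replication-linked genes (30 highest, 13 lowest) and for 100% of the variant genes (2 highest, 6 lowest), while it did so for 74.0% of all probes and for 88.6% of the 10589 probes above the limit on every array. Without this array the median log2 fold change became 0.090 for the replication-linked genes, with 39 higher and 16 lower, and 0.042 for the variant genes, with 5 higher and 3 lower, and over all probes it was −0.0011. The difference between the variant and the replication-linked medians in the 4 arrays therefore rested on SN-CCs replicate 2. Marker genes of other cells moved with this array in both directions. On the normalized scale SN-CCs replicate 2 gave the highest value for 11 of 14 oocyte, 4 of 5 theca and stroma and 3 of 4 mural granulosa markers. The same held for 3 of 5 leukocyte, 3 of 5 erythroid, 2 of 4 endothelial and 1 of 10 cumulus and granulosa markers. In that order of lists it gave the lowest value for 0, 0, 0, 1, 2, 1 and 6 of them. Over all 25697 probes it was the highest for 11479 and the lowest for 7544. Over the 10589 probes above the limit on every array these counts were 6269 and 3112. In several of the lists the summed signal followed a single gene. The cumulus and granulosa sum was 90640 on that array against 129810 to 134640 on the others, and without Inha (3760 against 43879 to 46056) it was 86880 against 85932 to 88642. The erythroid sum was 9059 against 13381 to 15938, and without Hba-a1 (7965 against 12295 to 15008) it was 1093 against 865 to 1086. The mural granulosa sum was 8035 against 5095 to 5410, and without Lhcgr (6215 against 2913 to 3417) it was 1820 against 1993 to 2407. The leukocyte sum was 1460 against 1265 to 1323, and without Lyz (999 against 811 to 837) it was 461 against 453 to 490. Without their brightest genes the oocyte sum (4987 against 3660 to 4621) and the theca and stroma sum (1968 against 1658 to 1807) stayed the highest there. The part of these cells in the histone values was not tested.

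Among the H2A genes, which encode a core histone of the H2A-H2B dimer, 3 of the 15 shared a deep drop on a single array (these 3, like Hist1h2ag, Hist1h2an, Hist1h2af, Hist1h2bk and Hist1h2bn, were chosen after their values were seen). Whether the probes of these 3 genes read RNA of one another was not tested. Hist1h2ad gave signals of 11571 and 1499 on the SN-CC arrays against 11963 and 12064 on the NSN-CC arrays. Hist1h2ah gave 9350 and 1351 on the SN-CC arrays against 8790 and 9347 on the NSN-CC arrays. Hist1h2ak gave 11843 and 1467 on the SN-CC arrays against 11015 and 10791 on the NSN-CC arrays. In each of the 3 genes a single array was low, whereas the others stayed within 1.04-fold, 1.06-fold and 1.10-fold of each other. Relative to the geometric mean of those others, SN-CCs replicate 2 was 7.91-fold lower for Hist1h2ad, 6.78-fold lower for Hist1h2ah and 7.64-fold lower for Hist1h2ak, and a drop at least as deep as that of Hist1h2ad was met by 179 of the 12451 probes above the limit on the other 3 arrays (1.44%). Their log2 fold changes of 1.64 ± 0.97, 1.47 ± 0.91 and 1.50 ± 1.00 (± standard error, n = 2 against 2, limma adjusted p = 0.811 for each) became 0.23, 0.16 and 0.055 without that array. Such a drop was not particular to H2A genes, as the second probe of H1fx gave 1344 and 148 on the SN-CC arrays.

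The remaining H2A genes with strong signals did not share the drop. Hist1h2ao gave 32674 and 36336 on the SN-CC arrays against 30354 and 33922 on the NSN-CC arrays, with a log2 fold change of −0.029 ± 0.16. Hist2h2ac gave 27070 and 27594 on the SN-CC arrays against 24669 and 26365 on the NSN-CC arrays, with 0.047 ± 0.14. For both genes the groups overlapped after normalization, and SN-CCs replicate 2 was the highest of the 4 unnormalized signals. Hist1h2an gave 6193 and 6568 on the SN-CC arrays against 5264 and 5785 on the NSN-CC arrays. Hist1h2af gave 9164 and 12350 on the SN-CC arrays against 8223 and 10147 on the NSN-CC arrays. As in the preceding pair, SN-CCs replicate 2 was the highest array for Hist1h2an and Hist1h2af, 1.15-fold and 1.35-fold above the mean of the others. Of the 15 H2A genes, 8 were higher and 7 lower in NSN-CCs. Their median log2 fold change was 0.016, and 0.061 without SN-CCs replicate 2.

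The promoters of 6 H2A genes are printed to set the 3 genes that dropped together beside 3 that did not. Each line holds the 120 bases before the annotated transcript start in RefSeq (GRCm38.p6), 5′ to 3′ on the strand of the gene, with capitals at the motifs that were searched on both strands: TATAAA (the TATA box), CCAAT (the CCAAT box, ATTGG on the other strand), ATTTGCAT (the octamer bound by POU factors, ATGCAAAT on the other strand), and TTTCGCGC or TTTGGCGC (E2F sites). None of these motifs overlaps another in the printed lines. The first 3 are the genes low on SN-CCs replicate 2, at chr13:23574261-23574380 (plus strand), chr13:22035644-22035763 (minus strand) and chr13:21753913-21754032 (minus strand), and the following 3 are at chr13:21833476-21833595, chr13:21787249-21787368 and chr3:96220881-96221000 (all on the minus strand).
Hist1h2ad: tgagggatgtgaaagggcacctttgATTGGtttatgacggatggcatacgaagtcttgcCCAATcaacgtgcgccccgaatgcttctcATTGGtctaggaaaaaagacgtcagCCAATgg
Hist1h2ah: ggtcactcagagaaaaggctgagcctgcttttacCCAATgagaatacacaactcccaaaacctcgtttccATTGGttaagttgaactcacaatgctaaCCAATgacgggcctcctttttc
Hist1h2ak: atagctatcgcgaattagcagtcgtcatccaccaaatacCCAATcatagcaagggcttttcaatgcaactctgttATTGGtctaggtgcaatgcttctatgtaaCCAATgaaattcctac
Hist1h2ao: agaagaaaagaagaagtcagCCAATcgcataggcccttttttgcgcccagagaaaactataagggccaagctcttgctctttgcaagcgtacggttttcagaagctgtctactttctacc
Hist1h2an: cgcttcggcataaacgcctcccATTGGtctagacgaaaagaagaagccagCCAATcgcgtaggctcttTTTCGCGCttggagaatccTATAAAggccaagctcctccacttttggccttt
Hist2h2ac: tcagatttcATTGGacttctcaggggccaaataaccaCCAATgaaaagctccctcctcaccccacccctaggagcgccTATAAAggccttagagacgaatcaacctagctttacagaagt
In these windows Hist1h2ad held 4 CCAAT boxes, Hist1h2ah and Hist1h2ak held 3 each, and the genes that did not drop held 1 (Hist1h2ao) or 2 (Hist1h2an and Hist2h2ac). The counts depended on the length of the window and did not set these genes apart over 250 bases, where they were 4, 3 and 3 in the genes that dropped and 3 (Hist1h2ao), 4 (Hist1h2an) and 3 (Hist2h2ac) in the others. Within the printed lines a TATA box was matched in Hist1h2an and Hist2h2ac only, and the E2F letters in Hist1h2an only. The search ended at the annotated start, so letters past it were not counted, and these matches depend on where that start was placed. The H2B genes next to the genes that dropped held a TATA box at −209 (Hist1h2bf), −198 (Hist1h2bk) and −190 (Hist1h2bn) from their own starts. E2F letters began at −192 in Hist1h2bf and −181 in Hist1h2bk, with none in Hist1h2bn. A match is a description of letters and not a site.

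Over the 250 bases before each start, 51 promoters of 50 replication-linked genes were found in RefSeq, and 6 of variant genes. The CCAAT box was matched in 42 of the 51 promoters (82.4%), the TATA box in 25 (49.0%), the octamer in 14 (27.5%) and the E2F letters in 6 (11.8%), beside 33.8%, 12.4%, 1.60% and 0.654% of all 32851 promoters. The classes were unlike one another, as the CCAAT box was matched in 15 of 15 H2A, 13 of 13 H2B, 6 of 6 H1 and 6 of 7 H3 promoters and in 2 of 10 H4 promoters, and the octamer in 7 of 15 H2A and 7 of 13 H2B promoters and in none of the H1, H3 and H4 promoters. Divergent H2A and H2B neighbours share promoter sequence, so these counts are not independent. Of the 6 variant promoters, 4 held a CCAAT box, 1 a TATA box and 1 an octamer.

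Several H2A genes are transcribed away from an H2B gene with which they share an intergenic promoter, and 6 such neighbours were on the array, 4 of them with both genes above the limit on all arrays. The H2B gene did not follow its H2A neighbour on SN-CCs replicate 2. Hist1h2bf, the neighbour of Hist1h2ad, gave 1541 and 1242 on the SN-CC arrays against 1614 and 1668 on the NSN-CC arrays. Hist1h2bk, the neighbour of Hist1h2ah, gave 582 and 1118 on the SN-CC arrays against 601 and 594 on the NSN-CC arrays, and was thus 1.89-fold higher on SN-CCs replicate 2 than on the others. Hist1h2bn, the neighbour of Hist1h2ak, gave 572 and 478 on the SN-CC arrays against 505 and 628 on the NSN-CC arrays. On the normalized log2 scale, SN-CCs replicate 2 differed from the mean of the other arrays by −2.97 for Hist1h2ad and −0.24 for Hist1h2bf, by −2.73 for Hist1h2ah and 1.17 for Hist1h2bk, and by −2.93 for Hist1h2ak and 0.17 for Hist1h2bn. In the remaining pair the differences were −0.42 for Hist1h2ag and 0.20 for Hist1h2bj.

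**Figure D2:**
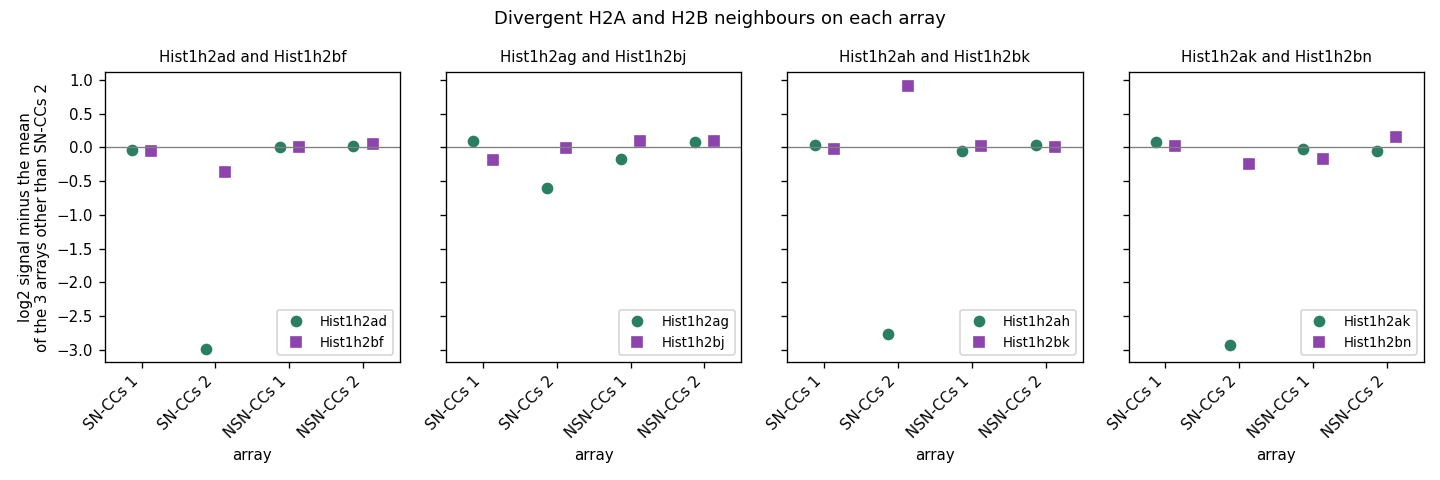
Each panel shows an H2A gene (circles) and its divergent H2B neighbour (squares) on the 4 arrays, as the log2 signal minus its mean over the 3 arrays other than SN-CCs replicate 2. On SN-CCs replicate 2 the H2A gene lies at −2.98 for Hist1h2ad, −2.76 for Hist1h2ah and −2.93 for Hist1h2ak, while the H2B neighbours lie between −0.37 and 0.92.

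The H2B genes, which encode the partner of H2A, had a median log2 fold change of −0.018 over 14 genes, with 6 higher and 8 lower in NSN-CCs, and of 0.17 without SN-CCs replicate 2, with 13 higher and 1 lower. Hist1h2bf had a log2 fold change of 0.29 ± 0.13 (adjusted p = 0.811), with both NSN-CC signals above both of SN-CCs. Hist1h2bj gave 891 and 1002 on the SN-CC arrays against 1080 and 1080 on the NSN-CC arrays, which made a log2 fold change of 0.19 ± 0.21 (adjusted p = 0.828, and 0.44 without SN-CCs replicate 2). Hist1h2bg gave 105 and 97 in SN-CCs, not above background, and 129 in each pool of NSN-CCs. On these arrays the levels thus differed by at least 1.02-fold (mean of NSN-CCs against the lowest level above the limit in SN-CCs). Its adjusted p was 0.811 (limma), and its log2 fold change was −0.23 in the authors' normalized table. Hist1h2bb, the only H2B gene that was lower both in the 4 arrays and without SN-CCs replicate 2, gave 155 and 145 on the SN-CC arrays against 148 and 134 on the NSN-CC arrays, close to the background limit, with −0.31 ± 0.18, and −0.14 without that array.

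Among the H4 genes, which encode the partner of H3 in the core of the nucleosome, Hist1h4i gave signals of 416 and 270 on the SN-CC arrays against 518 and 570 on the NSN-CC arrays. Hist1h4h gave 559 and 342 on the SN-CC arrays against 644 and 670 on the NSN-CC arrays. In both genes every NSN-CC pool lay above every SN-CC pool, and SN-CCs replicate 2 was the lowest. The log2 fold changes were 0.53 ± 0.14 for Hist1h4i (unadjusted p = 0.016, adjusted p = 0.811, limma) and 0.45 ± 0.15 for Hist1h4h (unadjusted p = 0.033, adjusted p = 0.811), and without SN-CCs replicate 2 they were 0.51 and 0.36. Hist1h4f gave 531 and 332 on the SN-CC arrays against 553 and 557 on the NSN-CC arrays, with a log2 fold change of 0.24 ± 0.14. All 11 H4 genes, those 3 included, lay above the limit on every array, 5 were higher and 6 lower in NSN-CCs, and the median moved from −0.11 to 0.17 without SN-CCs replicate 2.

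The H3 genes had the lowest median of the classes, −0.25 over 9 genes with 2 higher and 7 lower in NSN-CCs, and it was −0.016, with 4 higher and 5 lower, without SN-CCs replicate 2. Hist1h3g gave 155 and 145 on the SN-CC arrays against 130 and 116 on the NSN-CC arrays, which made a log2 fold change of −0.52 ± 0.18 (unadjusted p = 0.043, adjusted p = 0.811) on signals close to the limit, and of −0.35 without SN-CCs replicate 2. Hist1h3c gave 203 and 353 on the SN-CC arrays against 157 and 197 on the NSN-CC arrays, which made a log2 fold change of −0.86 ± 0.51 that became −0.17. Hist1h3h gave 183 and 241 on the SN-CC arrays against 158 and 169 on the NSN-CC arrays, with −0.64 ± 0.37, and −0.14 without that array. The groups did not overlap for Hist1h3g and Hist1h3h, and for Hist1h3c they did so only after normalization. The 2 H3 genes of cluster 2 were close to level, as Hist2h3b gave 4291 and 3770 on the SN-CC arrays against 4132 and 3766 on the NSN-CC arrays (0.14 ± 0.15, and 0.034 without SN-CCs replicate 2), and Hist2h3c1 gave 4202 and 3498 on the SN-CC arrays against 3141 and 3771 on the NSN-CC arrays (−0.0080 ± 0.18, and −0.14 without it).

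Of the linker histone genes of cluster 1, which encode the H1 proteins bound where DNA enters and leaves the nucleosome, 4 of 6 were below the limit on every array. Hist1h1c gave 6997 and 4923 on the SN-CC arrays against 6187 and 6955 on the NSN-CC arrays, with a log2 fold change of 0.38 ± 0.23 (adjusted p = 0.811), and 0.12 without SN-CCs replicate 2. Hist1h1b gave 143 and 134 on the SN-CC arrays against 148 and 141 on the NSN-CC arrays, with −0.11 ± 0.16. Only SN-CCs replicate 2 was low for Hist1h1c, and the groups overlapped for Hist1h1b. By cluster, the median was −0.029 over the 44 genes of cluster 1, −0.23 over the 7 of cluster 2 and −0.0074 over the 3 of cluster 3, none of which was above the limit, and the single gene of cluster 4, Hist4h4, gave 136 to 160. Without SN-CCs replicate 2 the medians were 0.12, 0.034 and 0.029 for clusters 1 to 3.

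**Figure D3:**
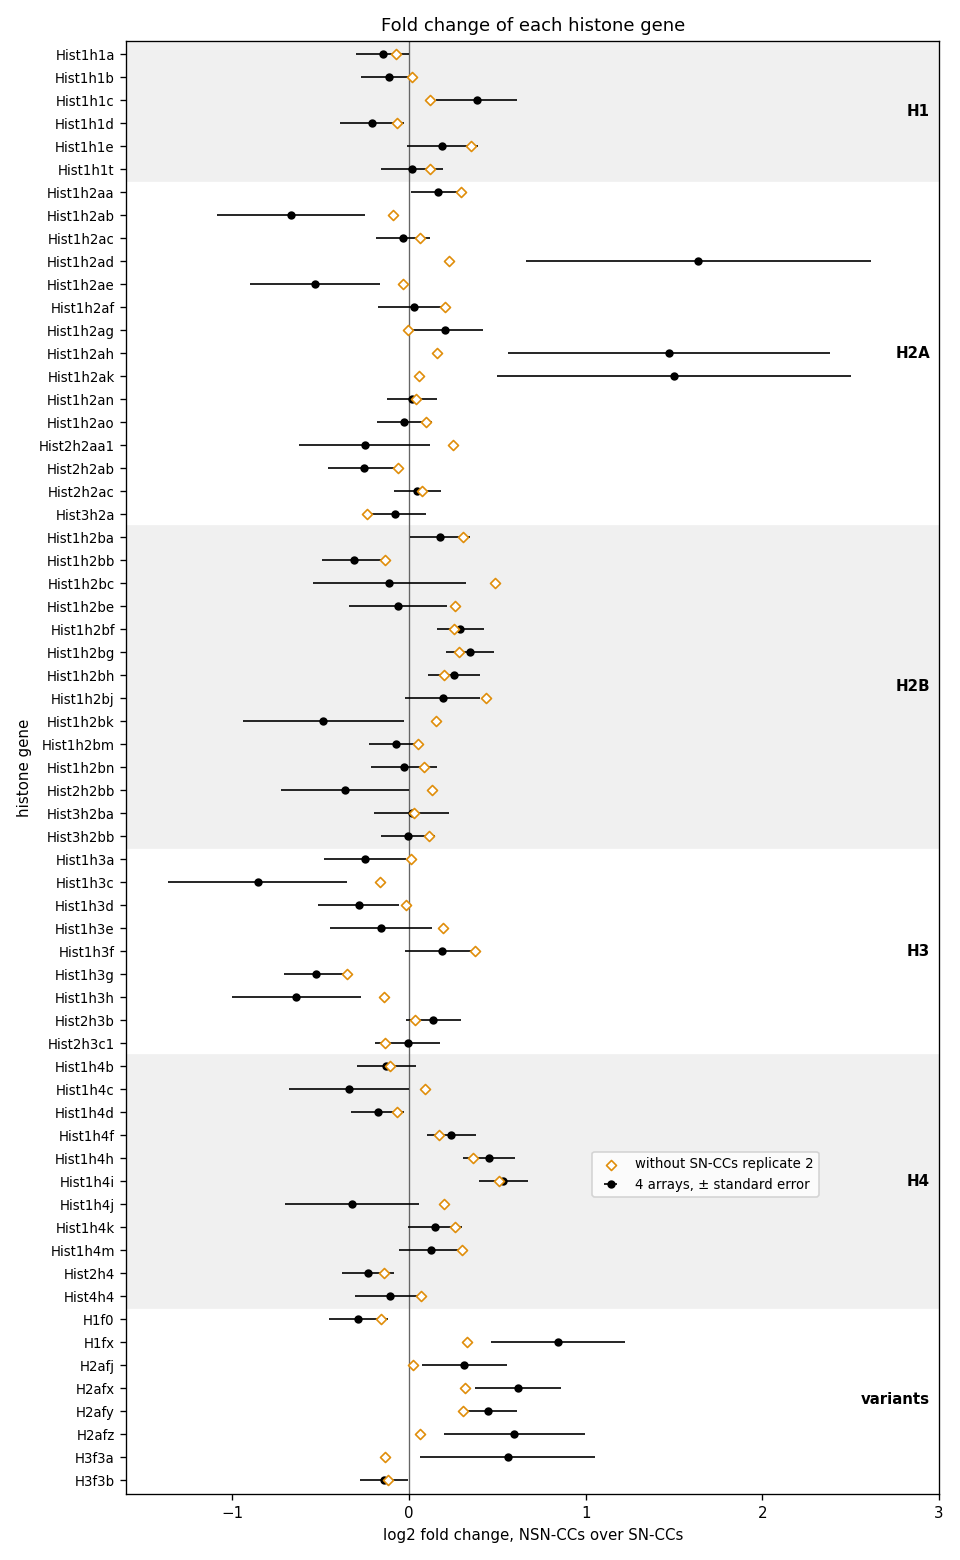
Black circles show the log2 fold change (NSN-CCs over SN-CCs) of each of the 63 histone genes from the 4 arrays with the standard error of limma, and open diamonds show the value without SN-CCs replicate 2. The 3 genes beyond 1 (Hist1h2ad, Hist1h2ah and Hist1h2ak) move to 0.23, 0.16 and 0.055, and Hist1h4i stays at 0.51.

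Among the variants, H2afx, whose product is phosphorylated at DNA breaks, gave 2493 and 1470 on the SN-CC arrays against 2833 and 2732 on the NSN-CC arrays. H2afy, which encodes macroH2A, a variant enriched in silent chromatin, gave 3857 and 3131 on the SN-CC arrays against 4321 and 4083 on the NSN-CC arrays. H1fx, a linker histone gene, gave 2701 and 1137 on the SN-CC arrays against 2932 and 3164 on the NSN-CC arrays. In these 3 genes both NSN-CC pools lay above both SN-CC pools, and the log2 fold changes were 0.62 ± 0.24, 0.45 ± 0.16 (unadjusted p = 0.049) and 0.84 ± 0.38, with an adjusted p of 0.811 for each (limma). They were 0.31, 0.31 and 0.33 without SN-CCs replicate 2. The second probe of H1fx gave 1344 and 148 on the SN-CC arrays against 1308 and 1462 on the NSN-CC arrays, so that its drop on SN-CCs replicate 2 (0.11 of the signal of replicate 1) was deeper than that of the brighter probe (0.42).

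H2afz, which encodes H2A.Z, a variant found at promoters, gave 13661 and 6768 on the SN-CC arrays against 11058 and 13981 on the NSN-CC arrays. H3f3a and H3f3b both encode the replacement histone H3.3. H3f3a gave 9997 and 3839 on the SN-CC arrays against 8280 and 7380 on the NSN-CC arrays. H3f3b gave 13658 and 14634 on the SN-CC arrays against 11315 and 10552 on the NSN-CC arrays. The 2 genes of the same protein thus differed on SN-CCs replicate 2, where H3f3a was 2.21-fold lower than the mean of the other arrays and H3f3b was 1.24-fold higher. The log2 fold changes were 0.60 ± 0.40 for H2afz, 0.56 ± 0.50 for H3f3a and −0.14 ± 0.14 for H3f3b, and 0.062, −0.14 and −0.12 without that array. A second, dimmer probe of H3f3a gave 206 and 100 on the SN-CC arrays against 202 and 204 on the NSN-CC arrays, low on the same array. H1f0, a linker histone gene of non-dividing cells, gave 236 and 188 on the SN-CC arrays against 194 and 214 on the NSN-CC arrays (−0.29 ± 0.17, and −0.16 without SN-CCs replicate 2). For H1f0 the groups were apart only after normalization, which moved SN-CCs replicate 2 from the lowest of the arrays to the highest. H2afj gave 151 and 100 in SN-CCs, the latter below the limit, and 158 and 148 in NSN-CCs (0.31 ± 0.24), and its fold change was 0.022 without SN-CCs replicate 2.

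The promoters of H2afz (chr3:137864367-137864486, plus strand) and H3f3b (chr11:116024505-116024624, minus strand) are printed in the same way, as variants that went opposite ways on SN-CCs replicate 2.
H2afz: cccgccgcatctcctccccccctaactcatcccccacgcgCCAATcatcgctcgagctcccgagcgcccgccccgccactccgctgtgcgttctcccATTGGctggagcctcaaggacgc
H3f3b: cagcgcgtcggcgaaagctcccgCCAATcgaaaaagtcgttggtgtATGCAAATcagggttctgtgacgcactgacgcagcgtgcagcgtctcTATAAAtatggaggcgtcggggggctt
Within the printed lines H2afz held 2 CCAAT boxes, and H3f3b held 1 together with an octamer and a TATA box, while over 250 bases they held 2 and 4 CCAAT boxes.

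The factors that make the ends of histone mRNAs (3' end formation), carry and exchange histones (chaperones) and copy DNA were described from lists of their own, and no gene of these lists passed the adjusted test (limma). Of the 18 genes of 3' end formation and histone gene transcription on the array, 8 were higher and 10 lower in NSN-CCs (median −0.093), and 1 gene was lower at an unadjusted p under 0.05. That gene, Cstf2, a cleavage stimulation factor, gave 3018 and 4056 on the SN-CC arrays against 2179 and 2009 on the NSN-CC arrays (−0.62 ± 0.20, unadjusted p = 0.032, adjusted p = 0.811, and −0.41 without SN-CCs replicate 2). Lsm10, a subunit of the U7 snRNP that is specific to histone mRNA, gave 1117 and 1485 on the SN-CC arrays against 872 and 843 on the NSN-CC arrays (−0.59 ± 0.26, and −0.27 without SN-CCs replicate 2). Both were lower in each NSN-CC pool than in each SN-CC pool. Upf1, a helicase needed for histone mRNA decay, gave 1052 and 1162 on the SN-CC arrays against 1379 and 1502 on the NSN-CC arrays (0.41 ± 0.20, and 0.63 without that array), and Papola, the canonical poly(A) polymerase, gave 754 and 533 on the SN-CC arrays against 789 and 854 on the NSN-CC arrays (0.28 ± 0.14). Slbp, which binds the histone stem-loop, was measured at 67 to 77, below the limit on all 4 arrays.

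Of the 26 chaperones and exchange factors, 13 were higher and 13 lower, with a median of 0.012. Hat1, which acetylates new histone H4, gave 10242 and 12713 on the SN-CC arrays against 6929 and 7009 on the NSN-CC arrays (−0.48 ± 0.15, unadjusted p = 0.031, adjusted p = 0.811), and Chaf1b, a subunit of chromatin assembly factor 1, gave 905 and 1056 on the SN-CC arrays against 670 and 705 on the NSN-CC arrays (−0.57 ± 0.23, and −0.30 without SN-CCs replicate 2). In both, the 2 groups did not overlap and NSN-CCs were the lower. Ipo4, an importin of histones, gave 1310 and 732 on the SN-CC arrays against 1347 and 1498 on the NSN-CC arrays (0.52 ± 0.21, and 0.28 without SN-CCs replicate 2), and Vps72, which carries H2A.Z, gave 439 and 102 on the SN-CC arrays against 528 and 574 on the NSN-CC arrays (1.50 ± 0.73, and 0.45 without it).

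Of the 25 genes of DNA replication in S phase, 7 were higher and 18 lower in NSN-CCs (median −0.16), beside −0.13 over the probes above the limit on all arrays. Without SN-CCs replicate 2, 3 were higher and 22 lower, with a median of −0.14, beside −0.0013 over those probes. Rrm2, a subunit of ribonucleotide reductase, gave 630 and 846 on the SN-CC arrays against 381 and 416 on the NSN-CC arrays (−1.01 ± 0.31, unadjusted p = 0.030, adjusted p = 0.811, and −0.60 without SN-CCs replicate 2), and Cdc6, which loads the replicative helicase, gave 349 and 245 on the SN-CC arrays against 269 and 241 on the NSN-CC arrays (−0.44 ± 0.15, unadjusted p = 0.035, adjusted p = 0.811). The groups did not overlap for Rrm2 and overlapped in their unnormalized signals for Cdc6. Tk1, thymidine kinase, gave 716 and 247 on the SN-CC arrays against 711 and 674 on the NSN-CC arrays (0.58 ± 0.37, and 0.079 without SN-CCs replicate 2), and Mcm3, a subunit of the helicase, gave 700 and 100 on the SN-CC arrays against 642 and 628 on the NSN-CC arrays (1.39 ± 0.98, and −0.031 without it). The last pair was low on SN-CCs replicate 2 alone.

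None of the 14 oocyte markers passed the adjusted test (limma, lowest adjusted p = 0.811), while the unadjusted p was below 0.05 for 4 of them. The fitted log2 fold change was below 0 for each of the 14, from −1.02 to −0.024 (Padi6), with a median of −0.52, and of −0.20 without SN-CCs replicate 2, while over the 10589 probes above the limit on all arrays 6616 were lower and the median was −0.13. The summed signals of the markers were 5870 and 6468 on the SN-CC arrays and 4672 and 4641 on the NSN-CC arrays. Zp3, a gene of the zona pellucida, gave 361 and 256 on the SN-CC arrays against 310 and 370 on the NSN-CC arrays, so its groups overlapped, and Zp2, another, lay below the limit on all arrays. H1foo, the linker histone gene of the oocyte, which the rule for the histone genes did not hold, gave 181 and 221 on the SN-CC arrays against 137 and 134 on the NSN-CC arrays (−0.84 ± 0.33, adjusted p = 0.811, and −0.41 without SN-CCs replicate 2). Oocytes store histone mRNAs, and the part of oocyte RNA in the histone signals was not tested. In pooled cells, fewer cells of a type and less RNA per cell cannot be told apart.

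**Figure D4:**
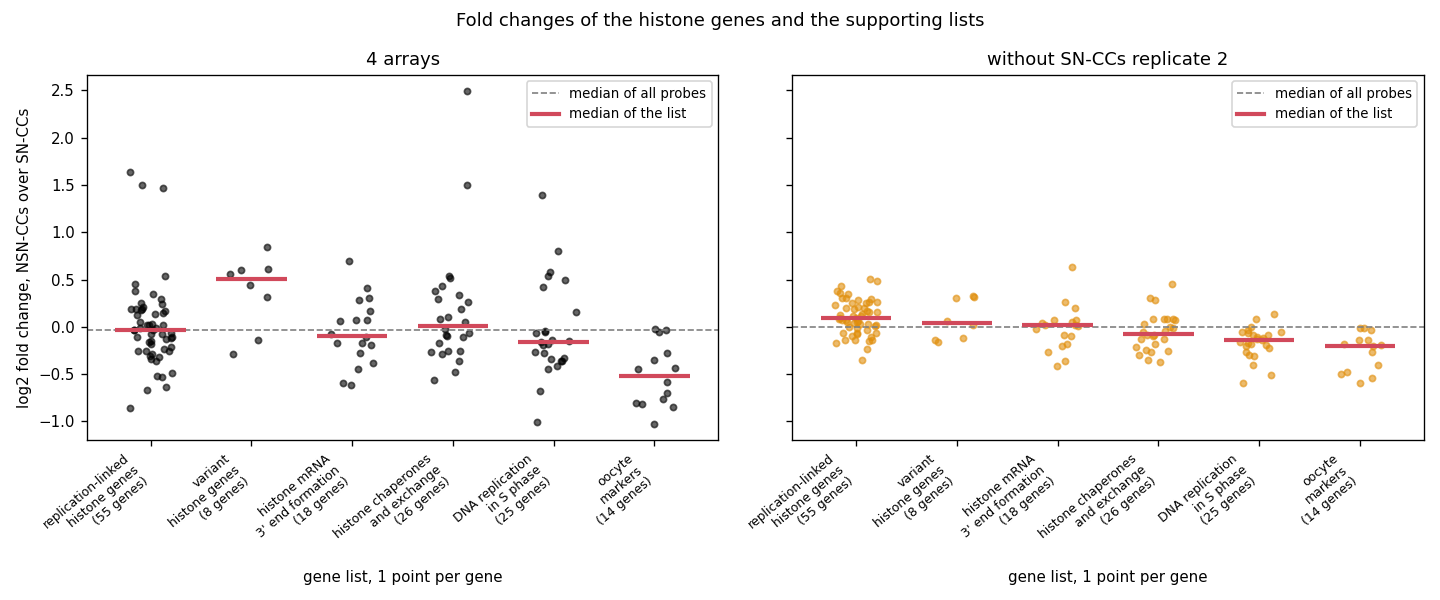
Points show the log2 fold change (NSN-CCs over SN-CCs) of each gene in 6 lists, from the 4 arrays in the left panel and without SN-CCs replicate 2 in the right panel, with the median of each list in red and the median of all probes dashed. The variant median moves from 0.50 to 0.042 and the replication-linked median from −0.029 to 0.090, while the S phase median is −0.16 and −0.14.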

How the data were processed

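RNA of 4 pools of CCs, 2 of each type, was labelled by the authors with the Illumina TotalPrep kit (2 rounds of amplification in the methods, a single transcription step in the labels), hybridised to mouse-8 BeadChips and read with BeadStudio (version 3 in the submitters' notes, another in the methods). The intensities deposited by the authors are the signals of 25697 probes on a linear scale, with no background subtraction or scaling between arrays, and the authors deposited a further table of intensities to which background subtraction and the rank invariant algorithm had been applied. In that table the minimum was 182 on SN-CCs replicate 2 and 66.2 to 69.1 on the others. The signals were corrected with normexp (offset 50), quantile normalized, log2 transformed and fitted per probe (limma 3.58.1, R 4.3.3) for the difference of NSN-CCs from SN-CCs with no further term. Benjamini-Hochberg adjustment ran over all probes, with a threshold of 0.05, so that every adjusted or unadjusted p is limma's. A two-sided exact permutation test of 2 arrays against 2 cannot go below 0.333. The number of arrays limits the precision, and the p-values measure the spread between pools, which the methods call biological replicates.

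Groups were taken from the sample titles. The members, the supporting lists and the tests were chosen with earlier results of these data known. Genes named are all variants, the 2 brightest replication-linked genes of each class, and the 3 higher and 3 lower with the smallest p. Further ones are 2 genes that the study lists, and the 2 higher and 2 lower of each supporting list with the smallest p. Hist1h2ad, Hist1h2af, Hist1h2ag, Hist1h2ah, Hist1h2ak, Hist1h2an, Hist1h2bk, Hist1h2bn and Hist4h4 were chosen after their values were seen. The same holds for Slbp, Inha, Hba-a1, Lhcgr, Lyz, Padi6, Zp2, Zp3 and H1foo. Of the 70 probes, 69 had a gene ID in the platform annotation, and promoters came from RefSeq (GRCm38.p6), in whose gene table Hist3h2bb is a pseudogene. Apart from the choice of the 2 genes that the study lists, the authors' comparisons, given in the study's supplement, were not used. The model was tested on simulated data with known changes. Alternatives covered the background correction, the normalization, the authors' table, a filter on dim probes, the replicate block, each array left out, every probe counted and other thresholds.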

Additional observations from a re-analysis of the deposited data

How the results depend on the processing

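None of the 63 histone genes was called with no background correction, with an offset of 16, with median scaling, in the authors' normalized table, with dim probes filtered out, with every probe counted, at an unadjusted p under 0.01 (alone, or with a fold over 1.3 read as log2 or as linear), with only the genes above the limit on 4 arrays (this and the p alone and the linear fold chosen after seeing the data) or with the replicate block, and 4 passed at an unadjusted p under 0.05. Leaving out 1 array in turn gave 0 to 31 calls. All 31 arose without SN-CCs replicate 1, where the remaining SN-CC array is assumed to vary like NSN-CCs and 37.3% of all probes were called, and 0 arose without any other array. The pairing by replicate number was not borne out (correlation of deviations 0.041 over all probes), and with the replicate block 0 genes were called and the medians stayed at −0.029 and 0.50.

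With each array left out, the variant median ranged from 0.042 (without SN-CCs replicate 2) to 0.76 (without SN-CCs replicate 1), and the replication-linked median from −0.14 to 0.090. In the authors' table the median of all probes was −0.43, beside −0.17 for the replication-linked genes (19 higher, 36 lower) and 0.46 for the variants. Of the values of named histone genes under the alternatives, 246 kept their direction and side of the threshold, 20 passed it, all without SN-CCs replicate 1, and 31 changed sign. Median scaling turned Hist1h2af to −0.27, Hist1h2an to −0.26, Hist1h2bn to 0.051, Hist2h2ac to −0.15, Hist2h3b to −0.083 and Hist4h4 to 0.012. The authors' table turned H2afj to −0.23, Hist1h2af to −0.036, Hist1h2an to −0.033, Hist1h2ao to 0.088, Hist1h2bg to −0.23, Hist1h2bn to 0.074 and Hist2h3c1 to 0.0038. Over the arrays left out, H3f3a ranged from −0.14 to 1.25, Hist1h1b from −0.25 to 0.018, Hist1h2af from −0.15 to 0.21, Hist1h2ag from −0.0069 to 0.42, Hist1h2an from −0.059 to 0.090, Hist1h2ao from −0.15 to 0.093, Hist1h2bj from −0.055 to 0.44, Hist1h2bk from −1.12 to 0.15, Hist1h2bn from −0.19 to 0.14, Hist2h2ac from −0.0019 to 0.096, Hist2h3c1 from −0.15 to 0.13 and Hist4h4 from −0.29 to 0.070. The cause was not tested. Genes near the background limit, such as Hist1h3g and Hist1h2bb, are limited by signal over background.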
